A study of Mus musculus with 23 samples.

Results

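The genes described here encode the fat oxidation machinery that the nuclear receptor PPAR-alpha (Ppara) controls: 38 genes chosen by symbol from a table of 16259 mouse genes, each averaging 10 or more normalized reads across the libraries. All 38 listed symbols were found and all passed that filter, as did 11939 genes in all. Poly-A RNA came from whole proximal small intestine of mice labelled male, in 23 libraries, 12 from wild-type and 11 from Ddit4-/- mice, which lack a stress-induced inhibitor of the growth kinase complex mTORC1. Untreated mice were fed ad libitum, fasted for 24 h, or fasted and then refed and harvested at 2 h or 6 h. Doxorubicin, a DNA-damaging chemotherapy, was injected intraperitoneally at 20 mg/kg into mice fed ad libitum or fasted for 24 h beforehand and refed (called prefasted below), and intestine was taken 2, 6, 12 or 24 h later. Each of these 12 conditions had 1 wild-type and 1 knockout library, except ad libitum doxorubicin at 2 h, which had a wild-type library only here. The number of mice behind a library is not given, and the genotypes stood in as replicates of a condition, so a p-value here reflects the scatter among single libraries only. Unless said otherwise, a difference is in log2(normalized reads + 1) from limma with its standard error (SE), p-values are Benjamini-Hochberg adjusted over the 11939 genes, and a gene is said to rise or fall only at an adjusted p under 0.05. Of each pair of values given for a condition, the first is the wild-type library and the second the knockout library. Where conditions are said not to overlap, this describes the few libraries of each. It is not a test, and its share over all genes was not counted.

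During fasting, fatty acids released from fat stores replace glucose as fuel. PPAR-alpha binds fatty acids and, paired with a retinoid X receptor, switches on genes for their uptake, activation, transport into mitochondria on carnitine, and stepwise shortening there and in peroxisomes. In the small intestine the same enzymes sit mainly in the absorptive enterocytes of the villus, where dietary fat also supplies ligand. The 38 genes fall into roles: 4 regulators (Ppara, Pparg, Ppargc1a, Creb3l3), 5 targets that switch fuel use or handle lipid (Pdk4, Angptl4, the lipid droplet coat protein Plin2, the pantetheinase Vnn1 and the peroxisome proliferation factor Pex11a), and 6 genes of fatty acid activation and carnitine transport (Acsl1, Cpt1a, Cpt2, Slc25a20, Crat, Slc22a5). There are 2 thioesterases (Acot1, Acot2), 8 enzymes of the mitochondrial spiral (Acadvl, Acadl, Acadm, Acads, Hadha, Hadhb, Hadh, Acaa2), 5 auxiliary enzymes for unsaturated fatty acids (Eci1, Eci2, Decr1, Decr2, Ech1) and 4 peroxisomal enzymes (Acaa1a, Acaa1b, Ehhadh, Hsd17b4). Electron transfer to the respiratory chain is covered by 3 genes (Etfa, Etfb, Etfdh) and ketone body interconversion by 1 (Bdh1).

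Library depth ran from 11418000 to 23429000 recovered reads (rounded values). The lowest count was 4 reads for Acot1, and each of the other 37 genes had at least 44 reads in every library. Ddit4 itself was at 66.9 to 414.5 normalized reads in wild-type libraries and 0 to 11.3 in the knockout libraries. Villin (Vil1), which marks intestinal epithelium, was at 38680 to 70074, and the summed ileal markers at 3.32 to 73.0. Pancreatic enzyme transcripts (14 genes) summed to 220946 in the wild-type library refed 6 h and 83749 in the fasted knockout library, against 380 to 4425 in the other libraries. The untreated knockout libraries fed ad libitum, fasted and refed 2 h had 0 to 5 reads from 4 Y-linked genes although all mice were labelled male. Each was the only knockout library of its condition, and the knockout library refed 6 h had 1190 such reads. Contrasts of these conditions with refed 6 h or doxorubicin, and of knockout with wild type, therefore also cross this difference. The titles of the 4 wild-type prefasted doxorubicin libraries call them untreated, while their drug field names doxorubicin, and the drug field was used. In whole tissue, fewer cells of a type and less RNA per cell cannot be told apart.

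Levels differed widely among the 38 genes when expressed as normalized reads per kilobase of exon. Creb3l3, a membrane-bound transcription factor of liver and intestine that works with PPAR-alpha, was highest at 5022 ± 1247 per kb (SD, n = 23), followed by the thiolase Acaa2 at 4429 ± 1838 and the hydroxyacyl-CoA dehydrogenase Hadh at 4366 ± 462, and these 3 overlapped across libraries. At the lower end were Ppara itself at 85.4 ± 28.8 per kb, the mitochondrial acyl-CoA thioesterase Acot2 at 65.4 ± 40.3 and its cytosolic relative Acot1 at 31.6 ± 29.5. The genes that varied most over the 23 libraries were Angptl4 (79.4 to 4742 normalized reads), Pdk4 (391 to 7648), Acot1 (3.74 to 499) and Acot2 (41.1 to 349). The steadiest were Hadh (17238 to 25680), Etfdh (1586 to 2473), Hadhb (837 to 1310) and Hadha (5689 to 9304), which encode the mitochondrial hydroxyacyl-CoA dehydrogenase, the oxidoreductase that passes electrons to ubiquinone, and the subunits of the trifunctional protein. Acot1 and Acot2 share some sequence: 9.84% of 150-base windows of the longest Acot1 transcript also occur in Acot2. For Acaa1a and Acaa1b that share was 12.7%, so reads within either pair of genes may be split between them.

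**Figure D1:**
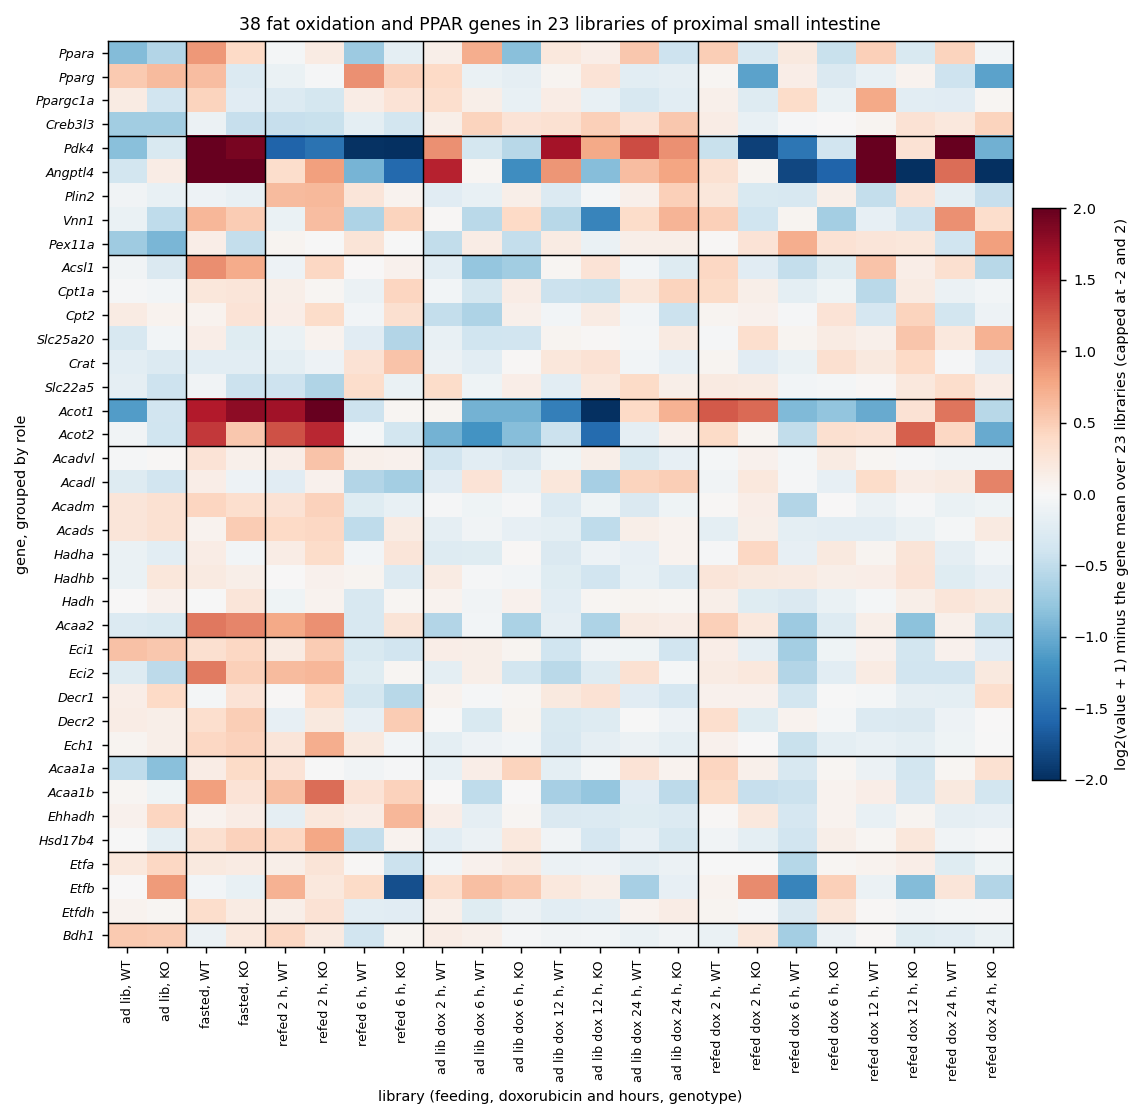
Heat map of the 38 genes (rows, grouped by role) in the 23 libraries (columns, by feeding, doxorubicin and time, and genotype), coloured by log2(value + 1) minus the mean of the gene over all libraries, with colours capped at -2 and 2. Pdk4, Angptl4, Acot1 and Acot2 carry the strongest colours, and 30 of the 38 rows average higher in the fasted than in the ad libitum columns.

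Promoter windows, from 250 bases before to 50 bases after a transcription start, were available in RefSeq (build GRCm38.p6) for 32 of the 38 genes, all but Angptl4, Vnn1, Crat, Acaa2, Decr1 and Hsd17b4. The nuclear receptor half-site AGGTCA, on either strand, was found in 6 of the 32 (18.8%: Acadm, Acadvl, Cpt1a, Creb3l3, Plin2 and Pparg), against 18.1% of all 27025 genes with a window. The full direct repeat AGGTCANAGGTCA, which contains the half-site, was in 0 of 32 and in 0.0481% of all genes, and the forkhead core TGTTTAC was in 0 of 32 and in 4.05%. The windows of Acadm and Creb3l3 are shown because these genes changed in the contrasts below and each holds a half-site match. Capitals mark that match, which in Acadm reads TGACCT because it lies on the opposite strand, and both sequences are written 5′ to 3′ on the strand of the gene.
Acadm, GRCm38.p6, chr3:153944594-153944893, minus strand: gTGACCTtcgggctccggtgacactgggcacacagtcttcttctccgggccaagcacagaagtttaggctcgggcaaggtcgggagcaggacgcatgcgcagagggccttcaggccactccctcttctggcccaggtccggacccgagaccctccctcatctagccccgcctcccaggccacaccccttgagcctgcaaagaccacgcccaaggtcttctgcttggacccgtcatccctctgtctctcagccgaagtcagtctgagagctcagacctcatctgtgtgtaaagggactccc
Creb3l3, internal start, GRCm38.p6, chr10:81092542-81092841, minus strand: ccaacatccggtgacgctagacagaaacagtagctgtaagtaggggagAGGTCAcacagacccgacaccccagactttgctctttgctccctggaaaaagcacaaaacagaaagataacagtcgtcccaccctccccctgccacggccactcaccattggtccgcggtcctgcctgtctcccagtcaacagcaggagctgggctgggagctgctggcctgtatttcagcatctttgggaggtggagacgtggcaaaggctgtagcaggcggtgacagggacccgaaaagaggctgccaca
The other Creb3l3 window in the table, at chr10:81098823-81099122 by the annotated 5′ start of the gene, holds no match. A match of letters is a description and does not show binding.

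The question of the feeding comparison was how the pathway changed when food was withdrawn and given back. The untreated series held no fasted or ad libitum library at 2 h or 6 h. Refeeding and time elapsed therefore cannot be told apart in the refed contrasts. In the knockout libraries, the contrasts at 6 h also cross the difference in Y-linked reads described above. Averaged over the 38 genes, log2 levels relative to the mean of each gene over all libraries were 0.45 and 0.33 in the fasted wild-type and knockout libraries, -0.11 and -0.07 in the ad libitum libraries, 0.15 and 0.33 after 2 h of refeeding, and -0.16 and -0.12 after 6 h. In wild type the fasted library therefore stood highest. In the knockout the fasted library and the one refed 2 h stood at about the same height. Each of these values is from a single library.

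Fasting for 24 h was compared with ad libitum feeding in untreated mice. No gene of the 38 passed an adjusted p of 0.05 with limma (0.343% of all genes did), none passed with edgeR and 6 passed with DESeq2. Shares of all genes are given here and below for limma only. Counts from the other tools and settings therefore have no background to be set against. At an unadjusted p under 0.05 limma had 13 higher and 1 lower (14 of 38, 36.8%, against 7.06% of all genes tested), 30 of 38 differences were above 0, and the median log2 difference was 0.21 against -0.00 for all genes.

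Pdk4 (GENCODE M21, mm10, chromosome 6, 5483351 to 5496309), which shuts off pyruvate dehydrogenase and so spares glucose, was at 912 and 1314 normalized reads in the ad libitum wild-type and knockout libraries and at 6873 and 6014 in the fasted ones. Angptl4, a secreted inhibitor of lipoprotein lipase, was at 609.7 and 869 when fed and at 3968 and 4742 when fasted. For neither gene did fed and fasted libraries overlap, but the log2 differences of 2.55 ± 0.68 (SE) and 2.57 ± 1.01 had adjusted p-values of 0.184 and 0.548. Without the 4 libraries whose titles conflict with their drug field, the same differences passed, with adjusted p-values of 0.00113 and 0.0303.

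Among the regulators, Ppara was at 170 and 206 when fed and at 566 and 409.7 when fasted, a log2 difference of 1.36 ± 0.38 (adjusted p = 0.217). The other regulators, Pparg (the relative of PPAR-alpha known for fat storage), the coactivator Ppargc1a and Creb3l3, differed by -0.41 to 0.41. The 2 smallest adjusted p-values belonged to thiolases, the enzymes that cleave the last bond of each cycle. The peroxisomal Acaa1a was at 5761 and 4593 when fed and at 9053 and 10660 when fasted (log2 difference 0.93 ± 0.20, adjusted p = 0.0647), and the mitochondrial Acaa2 at 5168 and 5070 against 12998 and 12263 (1.30 ± 0.28, adjusted p = 0.0719). Both were higher in each fasted library than in either fed library. With DESeq2 Acaa2 passed at an adjusted p of 0.00194.

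Eci2, an isomerase that prepares unsaturated fatty acids for oxidation, was at 642 and 534 when fed and 1578 and 1072 when fasted (log2 difference 1.15 ± 0.26, adjusted p = 0.0985). Acsl1, which activates long-chain fatty acids with coenzyme A, was at 2094 and 1818 against 4216 and 3710 (1.02 ± 0.26, adjusted p = 0.158). The thioesterase Acot1 was at 37.7 and 63.2 against 250.4 and 289 (2.44 ± 0.70, adjusted p = 0.24). None of the 3 overlapped between fed and fasted, but this did not set them apart. It held for 27 of the 38 genes, and the share over all genes was not counted. The rest of the carnitine system showed small differences: Cpt1a, the carnitine acyltransferase that gates entry into mitochondria, was at 1104 and 1083 when fed and 1314 and 1326 when fasted (0.27 ± 0.21, adjusted p = 0.886), and the range for all 6 genes of activation and carnitine transport was 0.03 to 1.02. All 8 genes of the mitochondrial spiral were above 0, but with a median of only 0.15. The lowest differences belonged to Etfb, a subunit of the electron transfer flavoprotein (-0.54 ± 0.61), and Bdh1, the mitochondrial dehydrogenase that interconverts the ketone bodies (-0.47 ± 0.20, adjusted p = 0.603), which was at 3051 and 3034 when fed and 1963 and 2455 when fasted. Of 89 other genes tested in 4 lists of the pathway (other peroxisomal and mitochondrial enzymes, other PPAR-alpha targets, receptor partners), 1 rose and 0 fell: Cyp4b1, a cytochrome P450, by 1.96 ± 0.34 (adjusted p = 0.0158).

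**Figure D2:**
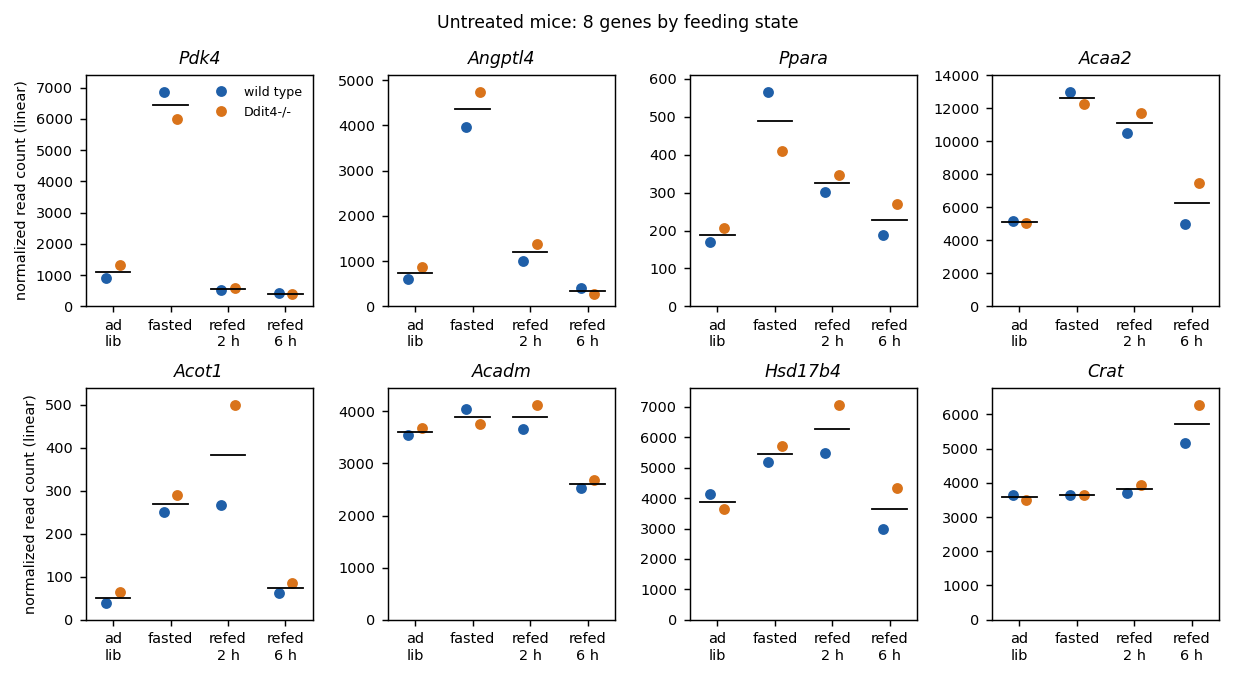
Normalized read counts (linear axes) of 8 genes in the 8 untreated libraries by feeding state, with 1 point per library coloured by genotype and a bar at the mean of each pair. Pdk4 and Angptl4 are high only in the fasted pair of these 4 states, whereas Acaa2, Acot1 and Hsd17b4 are also high at 2 h of refeeding and lower at 6 h.

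After 2 h of refeeding, 1 of 38 genes had changed against the fasted state (0.251% of all genes): Pdk4, at 531 and 584 normalized reads, fell by 3.53 on the log2 scale (SE 0.68, adjusted p = 0.0433). Both refed libraries were below both ad libitum libraries as well. Angptl4 stood at 1002 and 1385, between its fasted and fed values in each genotype (-1.88 ± 1.01 against fasted, adjusted p = 0.666). Ppara was at 302 and 348 (-0.57 ± 0.38, adjusted p = 0.755) and Cpt1a at 1221 and 1158 (-0.15 ± 0.21, adjusted p = 0.913). Plin2 was at 3366 and 3428 against 2042 and 1976 in fasted mice (0.76 ± 0.24, adjusted p = 0.268), and Acsl1 at 2070 and 2957 (-0.68 ± 0.26, adjusted p = 0.431). Leaving out any of the 4 libraries of this contrast ended the Pdk4 call, with values of -3.93 to -3.12 and adjusted p-values of 0.158 to 0.507. The call also did not hold with edgeR (adjusted p = 0.0739), without the 3 libraries lacking Y-linked reads (0.528) or without the 2 with pancreatic transcripts (0.239).

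None of the enzymes was called at 2 h. Acaa2 was at 10493 and 11717, Acot1 at 267 and 499, Acot2 at 296 and 349, and Eci2 at 1201 and 1216, all of them above both ad libitum libraries of the same gene. Over the 8 genes of the mitochondrial spiral the median log2 difference from fasted was -0.04. Over the 38 genes it was -0.04, against 0.03 for all genes tested. Of 11 adipose markers, whose summed values were 5654 and 8659 at 2 h and 2367 to 5277 in the fasted and 6 h refed libraries, the defining genes Adipoq, Fabp4, Plin1 and Cfd were at 28.7 to 1144 in the libraries refed 2 h and at 0 to 33.8 in the fasted and the 6 h refed libraries; Plin2, Pparg and Angptl4 are also expressed in fat, and the part of adipose RNA in their values was not tested.

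By 6 h of refeeding 5 of 38 genes differed from the fasted state, 4 lower and 1 higher, where 7.02% of all genes did. At an unadjusted p under 0.05 there were 17 lower and 1 higher (47.4% of the 38, against 25.1% of all genes), and the median log2 difference was -0.36 against -0.05. Pdk4, at 413 and 391 normalized reads, fell by 4.0 on the log2 scale (SE 0.68, adjusted p = 0.00644). Angptl4, at 409.6 and 266, fell by 3.71 (SE 1.01, adjusted p = 0.039). Both genes lay below each ad libitum library.

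Acaa2 fell by 1.04 (SE 0.28, adjusted p = 0.0385) to 5017 and 7487, and Acadm, the medium-chain acyl-CoA dehydrogenase whose promoter window is printed above, fell by 0.58 (SE 0.15, adjusted p = 0.0364) to 2523 and 2691 from 4039 and 3763. For both, refed and fasted libraries did not overlap. Crat, the carnitine acetyltransferase that buffers acetyl-CoA, moved the other way: it was at 3648 and 3640 in fasted mice and 5160 and 6277 at 6 h (0.64 ± 0.17, adjusted p = 0.0377). Among genes that did not pass, Acot1 (-1.88 ± 0.70, adjusted p = 0.11) and Acot2 (-1.18 ± 0.48, adjusted p = 0.142) were lowest, and Pparg (0.52 ± 0.30) and the carnitine importer Slc22a5 (0.36 ± 0.19) highest. Ppara was at 187 and 269 (-1.10 ± 0.38, adjusted p = 0.0872), close to its ad libitum values, and Cpt1a at 1033 and 1510 (-0.08 ± 0.21, adjusted p = 0.847).

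All 5 auxiliary enzymes for unsaturated fatty acids (Eci1, Eci2, Decr1, Decr2, Ech1) and all 3 electron transfer genes (Etfa, Etfb, Etfdh) had differences below 0, with medians of -0.56 and -0.47, and none of these 8 passed. Beside these, 3 of 12 crypt proliferation markers fell (summed 836 and 844 at 6 h, 2135 and 4673 when fasted), 1 of 9 Paneth cell markers fell and 1 of 15 villus enterocyte markers rose, and their part in the results was not tested. Calls at 6 h were fewer with edgeR (3, without Crat and Acaa2), 0 without the fasted knockout library, 1 without the fasted wild-type library, 3 without the knockout library refed 6 h or either library refed 2 h, and 0 without the 3 libraries lacking Y-linked reads, without the 2 with pancreatic transcripts or with array weights, and more with DESeq2 (10). Without the pancreatic libraries Acaa2 differed by -0.55 and without the wild-type library refed 6 h alone by -0.64, rather than by -1.04. In the other pathway lists 4 of 89 genes rose and 5 fell, among them the transcription factor Klf15 (-3.28 ± 0.64, adjusted p = 0.0112) and the P450 Cyp4f14 (0.68 ± 0.17, adjusted p = 0.0278).

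**Figure D3:**
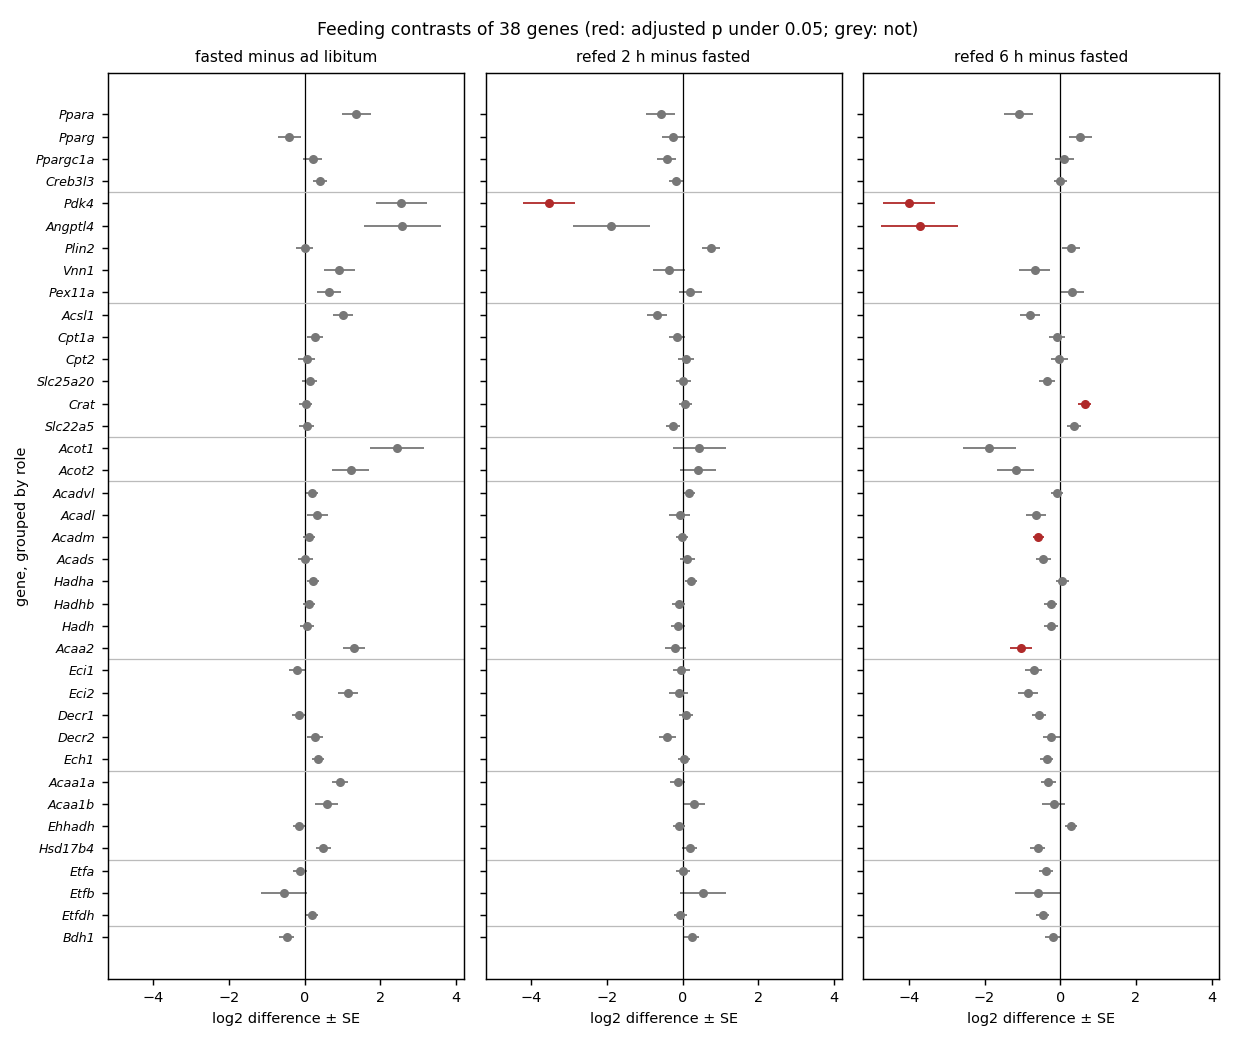
Log2 differences with standard errors for the 38 genes, by role, for fasted minus ad libitum, refed 2 h minus fasted and refed 6 h minus fasted; the 3 panels share the fasted libraries. Points past an adjusted p of 0.05 are red: none on the left, Pdk4 in the middle, and Pdk4, Angptl4, Acadm, Acaa2 and Crat on the right.

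Set directly against 2 h of refeeding, the 6 h libraries differed in 4 of 38 genes (9.00% of all genes): 3 fell and Crat rose. The called share of the 38 was thus near the background. At an unadjusted p under 0.05 there were 5 higher and 13 lower (47.4% of the 38, against 26.8% of all genes). In the other pathway lists 6 of 89 genes rose and 4 fell. Hsd17b4, the peroxisomal bifunctional enzyme for branched and very long chains, was at 5497 and 7065 at 2 h and 2991 and 4328 at 6 h, and fell by 0.79 (SE 0.20, adjusted p = 0.0252). Decr1, the mitochondrial dienoyl-CoA reductase, went from 2493 and 3247 to 1931 and 1681 and fell by 0.66 (SE 0.18, adjusted p = 0.035), and Acadm from 3659 and 4122 to 2523 and 2691, falling by 0.58 (SE 0.15, adjusted p = 0.0321). Crat rose by 0.57 (SE 0.17, adjusted p = 0.049) from 3702 and 3944. In none of the 4 did the 2 h and 6 h libraries overlap.

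The largest difference between these times, -2.32 ± 0.70 for Acot1 (adjusted p = 0.05002, just short of the threshold), passed with edgeR (0.0372) and DESeq2 (0.0023). Acot2 was the next lowest (-1.59 ± 0.48) and Pparg (0.77 ± 0.30) and Slc22a5 (0.61 ± 0.19) the highest of those not called. Pdk4 (-0.47 ± 0.68, adjusted p = 0.702), Angptl4 (-1.83 ± 1.01, adjusted p = 0.262), Ppara (-0.53 ± 0.38) and Cpt1a (0.07 ± 0.21) did not pass. Of the 8 spiral genes all 8 were below 0, with a median of -0.42. Beside this, 5 of 9 adipose markers, 7 of 9 Paneth cell markers and 8 of 12 crypt proliferation markers fell from 2 h to 6 h, while 2 of 15 villus enterocyte markers rose; the part of these shifts in the fat oxidation results was not tested. No member was called without the 3 libraries lacking Y-linked reads, without either library refed 2 h or with array weights, and 9 were called with DESeq2. The Crat call held in 3 of 13 alternatives, the fewest of any called difference, and not with edgeR (adjusted p = 0.0604) or quantile normalization (0.162).

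For doxorubicin, the comparison asked how the pathway differed from untreated intestine at each time after injection in mice fed ad libitum. The contrasts at 6, 12 and 24 h share the same pair of untreated libraries and are not independent. No untreated ad libitum library was taken at those later times, so drug and time elapsed cannot be told apart in these contrasts. The untreated knockout library had 0 Y-linked reads and the ad libitum doxorubicin knockout libraries had 1725 to 2030. Among the knockout libraries this difference cannot be told apart from the drug either. At 6 h 2 of 38 genes were called (1.34% of all genes), at 12 h 3 of 38 (9.00%) and at 24 h 2 of 38 (3.11%), so that at 12 h the share of the 38 was near the background. The medians over the 38 genes were -0.12, -0.11 and 0.04, against 0.00, -0.01 and 0.02 over all genes.

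Creb3l3 was higher at every time. It was at 9052 and 9049 normalized reads in the untreated wild-type and knockout libraries, 15841 in the only library at 2 h, 19919 and 17773 at 6 h, 18209 and 20423 at 12 h, and 17989 and 21381 at 24 h. No doxorubicin library overlapped the untreated pair. It rose by 1.06 ± 0.18 at 6 h (adjusted p = 0.0111), 1.09 ± 0.18 at 12 h (adjusted p = 0.00235) and 1.12 ± 0.18 at 24 h (adjusted p = 0.00458), about 2.08-fold to 2.17-fold. All 3 calls held with edgeR and DESeq2 and were lost without the 3 libraries lacking Y-linked reads, which include an untreated library of this contrast, with differences of 1.04 to 1.10. At 6 h leaving out any 1 of the 4 libraries ended the call (0.97 to 1.14, adjusted p = 0.064 to 0.131), at 12 h the knockout doxorubicin library did (0.997, adjusted p = 0.052), and at 24 h either knockout library did (0.98 and 1.12, adjusted p = 0.108 and 0.06). Its half-site sequence is the one printed above; the start it belongs to lies inside the gene as annotated in GENCODE M21 (mm10, chromosome 10, 81084324 to 81098874, minus strand, 12 exon blocks).

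Acaa1a, whose product is the peroxisomal thiolase, was at 5761 and 4593 in untreated libraries, 7347 at 2 h, 8911 and 11109 at 6 h, 7113 and 7986 at 12 h and 9862 and 8590 at 24 h. All 7 doxorubicin libraries were above both untreated ones. It rose by 0.95 ± 0.20 at 6 h (adjusted p = 0.0268) and 0.84 ± 0.20 at 24 h (adjusted p = 0.0312), and stood at 0.55 ± 0.20 at 12 h (adjusted p = 0.0943). The 6 h call did not hold with quantile normalization (adjusted p = 0.0519), and at both times leaving out any 1 of the 4 libraries ended the call, with differences of 0.77 to 1.13 at 6 h and 0.66 to 1.02 at 24 h.

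At 12 h Eci1 and Ehhadh fell. Eci1, the mitochondrial enoyl-CoA isomerase, was at 1149 and 1121 in untreated libraries and 581 and 730.1 at 12 h, a fall of 0.80 (SE 0.23, adjusted p = 0.0393). Ehhadh, the peroxisomal bifunctional enzyme, was at 3202 and 4038 against 2449 and 2490, a fall of 0.54 (SE 0.16, adjusted p = 0.0425). Neither overlapped with the untreated pair, and neither passed with edgeR (adjusted p = 0.0509 and 0.0583) or without any 1 of the 4 libraries (-0.99 to -0.61 for Eci1, -0.65 to -0.44 for Ehhadh). At 24 h they were at similar levels, Eci1 at 723 and 592 and Ehhadh at 2546 and 2490, with adjusted p-values of 0.0712 and 0.0874.

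Pdk4 was at 912 and 1314 when untreated, 3043 at 2 h, 1269 and 1100 at 6 h, 5128 and 2739 at 12 h and 4004 and 3040 at 24 h. Libraries at 2, 12 and 24 h were thus above the untreated pair and those at 6 h were within it. The differences of 0.11 ± 0.68 at 6 h, 1.77 ± 0.68 at 12 h (adjusted p = 0.114) and 1.67 ± 0.68 at 24 h (adjusted p = 0.188) did not pass, but those at 12 and 24 h passed without the 4 libraries with conflicting titles (adjusted p = 0.00182 and 0.0053). Angptl4 was at 2280 at 2 h, 804 and 329 at 6 h, 1438 and 436 at 12 h and 1204 and 1358 at 24 h, and its differences were -0.50, 0.12 and 0.81, each with an SE of 1.01. The 2 h library, high for both genes, also had the highest Adipoq of all libraries (422), and the part of adipose RNA in it was not tested.

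Ppara was at 515 and 173 at 6 h, 360.2 and 339 at 12 h and 451 and 233 at 24 h (0.67 ± 0.38, 0.90 ± 0.38 and 0.80 ± 0.38, adjusted p = 0.44, 0.153 and 0.275). Cpt1a differed by -0.06 ± 0.21 at 6 h, -0.40 ± 0.21 at 12 h and 0.37 ± 0.21 at 24 h, with no call. Of those not called, the highest differences were Ppara and Pex11a, which multiplies peroxisomes, at 6 h (0.66 ± 0.31), Pdk4 and Ppara at 12 h, and Pdk4 and Acot1 (1.29 ± 0.70) at 24 h. The lowest were Acot2 (-0.79 ± 0.48) and Pparg (-0.74 ± 0.30) at 6 h, Acot1 (-2.0 ± 0.70) and Acot2 (-0.75 ± 0.48) at 12 h, and Etfb (-0.85 ± 0.61) and Eci1 at 24 h. Acot1 at 12 h was 31.6 and 3.74 normalized reads, the second value being 4 reads. Bdh1 was lower in all 7 doxorubicin libraries (1935 to 2356) than in the untreated pair, with differences of -0.48, -0.58 and -0.62 that did not pass.

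**Figure D4:**
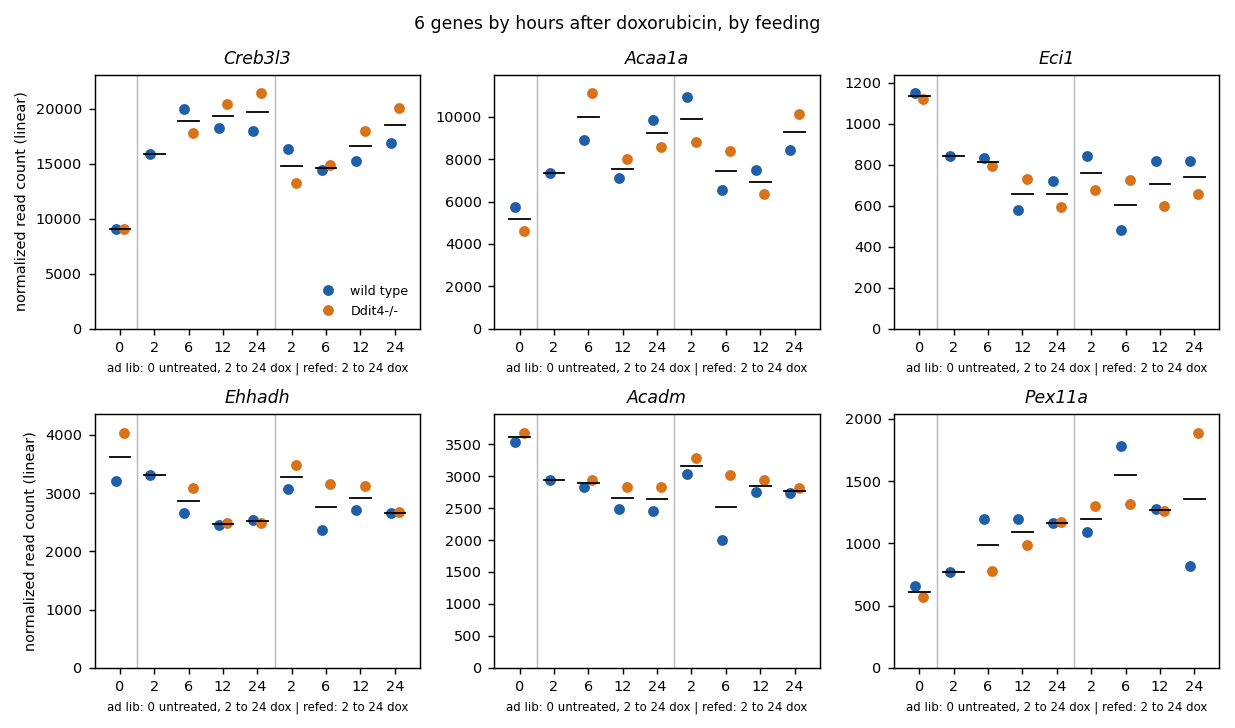
Normalized read counts (linear axes from 0) of 6 genes by hours after doxorubicin, with untreated ad libitum libraries on the left, ad libitum doxorubicin libraries in the middle and prefasted doxorubicin libraries on the right; 1 point per library, bars at the mean. Creb3l3 is at 9052 and 9049 in the untreated ad libitum libraries and at 13210 to 21381 in all 15 doxorubicin libraries. The untreated fasted and refed libraries, not drawn here, were at 10632 to 13589 and so overlap the doxorubicin range.

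Marker levels shifted in the same contrasts. At 12 h 6 of 15 villus enterocyte markers rose, 5 of 12 crypt proliferation markers fell and 5 of 9 smooth muscle markers fell, and the summed crypt markers were at 425 to 536 against 3039 to 4571 in the untreated pair. Their part in the member results was not tested. In the other pathway lists 4 of 89 genes rose and 3 fell at 6 h, 8 rose and 6 fell at 12 h, and 3 rose and 3 fell at 24 h. Pdk1, another pyruvate dehydrogenase kinase, fell at each time, with differences of -1.65, -1.65 and -1.45 (adjusted p = 0.00373, 0.000997 and 0.00458). Acox2, the peroxisomal oxidase for branched chains and bile acid precursors, rose at all 3 times, by 2.81, 2.79 and 2.94 (adjusted p = 0.0111, 0.0032 and 0.00492). The desaturase Fads2 fell by 2.16 at 6 h and fell by 3.10 at 12 h (adjusted p = 0.0245 and 0.000967), and Por, the electron donor of microsomal P450s, rose by 1.87 at 12 h (adjusted p = 0.000688).

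Between 6 h and 24 h in mice fed ad libitum, 0 of 38 genes were called with limma, as with edgeR and DESeq2 (0.00% of all genes). At an unadjusted p under 0.05 there were 3 higher (7.89% of the 38, 7.12% of all genes). Pdk4 (1.56 ± 0.68, adjusted p = 0.682), Acot1 (1.49 ± 0.70) and Angptl4 (1.31 ± 1.01) had the highest differences and Etfb (-0.97 ± 0.61) and Eci1 (-0.32 ± 0.23) the lowest, with Cpt1a at 0.44 ± 0.21 and Ppara at 0.12 ± 0.38.

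In prefasted mice, doxorubicin could be set against untreated refed mice at 2 h and 6 h only. At both times the wild-type doxorubicin library has a title that calls it untreated. At 2 h 0 of 38 were called with limma, edgeR or DESeq2 (0.0335% of all genes), with 2 higher and 6 lower at an unadjusted p under 0.05 (21.1% of the 38, 11.4% of all genes). Creb3l3 was at 16307 and 13210 with the drug and 10713 and 10740 without (0.45 ± 0.18, adjusted p = 0.352), Slc22a5 at 2187 and 2170 against 1454 and 1282 (0.67 ± 0.19, adjusted p = 0.203), and Acot2 at 160 and 126 against 296 and 349 (-1.17 ± 0.48, adjusted p = 0.368). These 3 did not overlap. Acot1 differed by -0.95 ± 0.70, Pdk4 by 0.38 ± 0.68, Angptl4 by -0.41 ± 1.01, Ppara by 0.02 ± 0.38 and Cpt1a by 0.17 ± 0.21.

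At 6 h 0 of 38 were again called with any of the 3 tools (0.00% of all genes), with 1 higher and 3 lower at an unadjusted p under 0.05 (10.5% of the 38, 12.1% of all genes). Pdk4 was at 592 and 1245 with the drug and 413 and 391 without (1.09 ± 0.68, adjusted p = 0.552), and Acadl, the long-chain acyl-CoA dehydrogenase, was the next highest (0.54 ± 0.27). Pparg (-0.77 ± 0.30) and Acot1 (-0.64 ± 0.70) were lowest, and Angptl4 (-0.47 ± 1.01), Ppara (0.34 ± 0.38) and Cpt1a (-0.30 ± 0.21) lay between. Creb3l3 was at 14423 and 14824 with the drug against 12771 and 11362.

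Late against early prefasted doxorubicin libraries (12 and 24 h against 2 and 6 h) gave 0 calls of 38 with limma and edgeR and 1 with DESeq2, where limma called 0.0921% of all genes, and 2 higher at an unadjusted p under 0.05 (5.26% of the 38, 10.9% of all genes). Pdk4 was at 1189, 443, 592 and 1245 in the early libraries, and at 7499 and 7648 in the late wild-type libraries but 1988 and 834 in the late knockout libraries. Early and late overlapped through the knockout library at 24 h. Its difference was 1.98 ± 0.48 (adjusted p = 0.134; DESeq2 0.0118), and 0.79 without the 4 libraries with conflicting titles, which include both high ones. Acadl was the next largest (0.43 ± 0.19), Etfb (-0.37 ± 0.43) and Acot1 (-0.23 ± 0.50) the lowest, and Angptl4 (0.24 ± 0.72), Ppara (0.16 ± 0.27) and Cpt1a (-0.19 ± 0.15) did not pass.

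Prefasting itself was compared within the drug in 14 libraries forming 7 pairs matched on genotype and time. The prefasted libraries of all wild-type pairs have titles that call them untreated, so those pairs are within the drug by the drug field only. With limma 0 of 38 genes were called (0.00% of all genes), as with edgeR and DESeq2, and 5 were higher and none lower at an unadjusted p under 0.05 (13.2% of the 38, 6.42% of all genes). Acaa1b, a peroxisomal thiolase, and Slc25a20, the carnitine-acylcarnitine carrier of the inner mitochondrial membrane, were higher in 7 of 7 pairs. Neither was called, and the share of all genes higher in every pair was not counted. Slc25a20 was at 1732, 1830, 1887 and 2025 in prefasted wild-type libraries at 2, 6, 12 and 24 h against 1583, 1335, 1834 and 1704 in the ad libitum ones. In knockout libraries at 6, 12 and 24 h it was at 1972, 2571 and 2832 against 1354, 1778 and 1993. The pair differences ran from 0.04 to 0.54. Acot2 (0.88 ± 0.34, adjusted p = 0.754) and Acot1 (0.80 ± 0.50) were higher in 6 of 7 pairs, Angptl4 (-1.0 ± 0.47, adjusted p = 0.754) was lower in 5 of 7 and Pdk4 (-0.45 ± 0.29) in 4 of 7, and Ppara (0.05 ± 0.14) and Cpt1a (0.00 ± 0.13) were near 0.

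For Angptl4 the late pairs went in both directions: prefasted libraries were higher in the wild-type pairs at 12 h (3564 against 1438) and 24 h (1699 against 1204), and lower in the knockout pairs at 12 h (178 against 436) and 24 h (79.4 against 1358). This split by genotype was not tested, and its wild-type prefasted libraries are among those with conflicting titles. Whether the prefasting difference itself changed from early to late was tested in the same pairs, and 0 of 38 genes were called with limma, edgeR or DESeq2 (0.00% of all genes), with none at an unadjusted p under 0.05 (5.62% of all genes). The highest values were Acot1 (0.59 ± 1.05) and Pdk4 (0.55 ± 0.58), the lowest Pex11a (-0.46 ± 0.26) and Cpt2, the inner-membrane carnitine palmitoyltransferase (-0.43 ± 0.22). Angptl4 was at 0.26 ± 0.99, Ppara at -0.06 ± 0.30 and Cpt1a at -0.21 ± 0.27.

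The last question was whether loss of Ddit4 altered the pathway. In the untreated pairs fed ad libitum, fasted and refed 2 h, only the knockout library lacked Y-linked reads. In those pairs genotype and this difference cannot be told apart. Over 11 conditions with both genotypes, 0 of 38 genes were called for knockout against wild type with limma, edgeR or DESeq2, where limma called 0.578% of all genes. At an unadjusted p under 0.05 there were 3 higher and 3 lower (15.8% of the 38, 12.0% of all genes), and the median difference was -0.00 against -0.01 over all genes. Ehhadh was higher in 10 of 11 knockout libraries (0.21 ± 0.07, adjusted p = 0.195), with pair differences from -0.03 to 0.51. Acadm was also higher in 10 of 11, and Cpt2 (0.24 ± 0.09, adjusted p = 0.308), Etfa and Hadha in 9 of 11. Angptl4 (-1.0 ± 0.43, adjusted p = 0.361) was lower in 6 of 11, Pdk4 (-0.60 ± 0.29, adjusted p = 0.426) in 8 of 11 and Ppara (-0.44 ± 0.16, adjusted p = 0.275) in 8 of 11, while Cpt1a was at 0.16 ± 0.09. No gene of the 38 was on the same side in all 11 pairs, and such counts of pairs were not made over all genes. Of 7 T cell markers tested, 3 rose in the knockout, and the summed list was at 2923 to 6139 in wild-type and 3866 to 11743 in knockout libraries; its part in the member values was not tested.

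**Figure D5:**
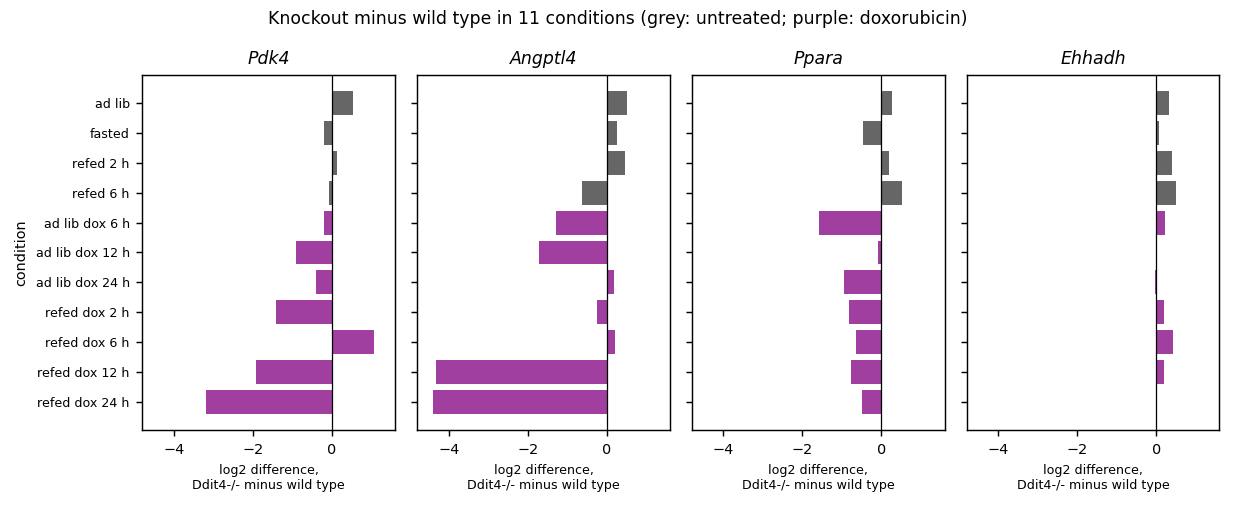
Log2 difference of knockout minus wild-type library in each of 11 conditions for Pdk4, Angptl4, Ppara and Ehhadh, with untreated conditions in grey and doxorubicin conditions in purple; each bar is 1 pair of libraries, without an error. Ppara is below 0 in 7 of 7 doxorubicin pairs, while Acadm, Etfa and Hadha, not drawn, are above 0 in 7 of 7. The longest bars belong to Pdk4 and Angptl4 in the prefasted doxorubicin pairs at 12 and 24 h.

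Pairs with and without doxorubicin did not look the same for some genes. In 7 of 7 doxorubicin pairs Ppara was lower in the knockout than in the wild-type library, with differences of -1.57 to -0.09, and in 3 of 4 untreated pairs it was higher. Such a run was not particular to Ppara: Acadm, Etfa and Hadha were higher in the knockout in 7 of 7 doxorubicin pairs. Runs of this kind were not counted over all genes. Pdk4 was lower in 6 of 7 doxorubicin pairs and in 2 of 4 untreated pairs, and Angptl4 in 5 of 7 and 1 of 4. The difference of the knockout effect between drug groups was tested: 0 of 38 genes were called with limma, edgeR or DESeq2 (0.00% of all genes), with 1 higher and 3 lower at an unadjusted p under 0.05 (10.5% of the 38, 4.16% of all genes). It was -0.89 ± 0.26 for Ppara, -1.81 ± 0.80 for Angptl4 and -1.09 ± 0.55 for Pdk4 (each with an adjusted p of 0.979). Slc22a5 (0.36 ± 0.15) and Etfb (0.67 ± 0.53) were highest and Cpt1a was at 0.08 ± 0.19. Of the 4 untreated knockout libraries in this test, those fed ad libitum, fasted and refed 2 h had 0 to 5 Y-linked reads. The doxorubicin knockout libraries had 1286 to 2030. For most untreated pairs this difference between libraries therefore cannot be told apart from the drug. In the prefasted doxorubicin pairs the wild-type and knockout values of Angptl4 were 3564 and 178 at 12 h and 1699 and 79.4 at 24 h. These wild-type libraries are among those whose titles conflict with their drug field, and without all 4 of them the difference for Angptl4 was -1.10.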

How the data were processed

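The submitters deposited 1 table of size-factor normalized gene counts (a linear signal, not log-transformed) for 23 poly-A libraries from a kit that does not keep strand. Per the submitters' processing notes, Trim Galore, STAR, DESeq2 and the mm10 build were used; versions, gene counting and annotation are not given in the sources used here. Every deposited value was a whole multiple of 1 step per library (100% within 0.01 of a whole read), so reads were recovered, with 1 read worth 0.705 to 1.67 units. Genes with a mean of at least 10 were tested with limma 3.58.1 (eBayes with trend, two-sided, R 4.3.3) on log2(value + 1), since the values are normalized, with Benjamini-Hochberg adjustment over 11939 genes. A model of 12 conditions plus genotype over 23 libraries gave most comparisons, with a shared estimate of the spread; 14 doxorubicin libraries in 7 pairs matched on genotype and time gave the prefasting comparisons, and a genotype by drug term gave the last. Genotypes thus stand in for replicates within a condition.

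The alternatives were count models fitted to the recovered reads (edgeR 4.0.16, DESeq2 1.42.0), a pseudocount of 5, a minimum mean of 1, quantile normalization, array weights, leaving out sets of libraries, and leaving out each library. The pipeline was tested on simulated data, and the outcome is not reported here. A lack of calls does not show an absence of change. Named per comparison were members past the threshold (up to 8 with the smallest p), Pdk4, Cpt1a, Ppara and Angptl4 always, and the 2 highest and 2 lowest of the rest; other pathway genes were limited to the 3 smallest p past the threshold. Further members given as values were chosen after their values were seen. The members and lists were chosen with earlier results of these data known. Some genes of the pathway are not reported here. Gene positions and exonic lengths came from GENCODE M21 (GRCm38), promoter windows from RefSeq on GRCm38.p6. Figures were drawn with matplotlib 3.10.9.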

Additional observations from a re-analysis of the deposited data

How the results depend on the processing

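The share of all genes called under each alternative is not given, so a changed count among the 38 does not single out the pathway. Among the 38 genes, fasted against ad libitum had 0 calls, but 3 with array weights, 6 with DESeq2, 6 without the 4 libraries with conflicting titles, and 0 to 1 on leaving out single libraries. Refed 2 h against fasted had 1 call, and 0 with edgeR, without the 3 libraries lacking Y-linked reads and without the 2 with pancreatic transcripts (0 to 1 on leaving out single libraries). Refed 6 h against fasted had 5 calls, but 8 with quantile normalization, 3 with edgeR, 10 with DESeq2, 9 without the conflicting titles, and 0 with array weights, without the Y-lacking libraries or without the pancreatic ones (0 to 7 on leaving out single libraries). Refed 6 h against 2 h had 4 calls, but 9 with DESeq2, 10 without the conflicting titles, and 0 with array weights or without the Y-lacking libraries (0 to 7). After doxorubicin, 6 h had 2 calls, but 1 with quantile normalization and 0 without the Y-lacking libraries (0 to 2). At 12 h there were 3, but 5 with quantile normalization, 12 with array weights, 1 with edgeR, 6 without the conflicting titles and 0 without the Y-lacking libraries (0 to 5). At 24 h there were 2, but 12 with array weights, 4 with DESeq2, 5 without the conflicting titles and 0 without the Y-lacking libraries (0 to 3). Late against early prefasted doxorubicin had 0, but 1 with DESeq2 (0 to 1). The cause was not tested, except that leaving out libraries also means fewer samples, and where 1 library of a condition was left the lone one is assumed to vary like the others. The 17 called differences kept their direction under every alternative run; over the alternatives, 120 recomputed values stayed past the threshold and 101 did not. For a set of differences not called, which did not include all of those named, 224 recomputed values stayed uncalled and 28 passed. Pairs were matched on genotype, time and condition; no fit with replicate number as a block was made, since each group had a single library. Depth limits Acot1 most, at 4 reads in 1 library.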
